A study of Mus musculus with 4 samples.

Results

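The 9 genes described here encode parts of the light-signalling machinery of rod photoreceptors, the dim-light receptor cells of the retina, and were read in libraries of sorted retinal microglia. They are Gnat1, Gngt1, Pde6a, Pde6b, Pde6g, Sag, Pdc, Rcvrn and Cnga1, taken by symbol. All 9 were present among the 15586 genes of the table, and all 9 passed the filter on low values that left 7823 genes for testing. Pde6a passed it through the knockout libraries alone, since its mean in the controls was 0.64 FPKM (fragments scaled to transcript length and library size).

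The libraries were made from mice aged 2 months, 200 EYFP-positive cells per library, in 2 groups of 2. The control mice had the genotype Cx3cr1CreER/+;Tak1fl/fl and received corn oil by intraperitoneal injection on 5 days. In the TAK1 knockout group tamoxifen was injected at 75 mg/kg on 5 days; the genotype label of these samples is Cx3cr1CreER/+;Tak3fl/fl, whereas the treatment text gives Tak1 for all mice. TAK1 is a kinase of cytokine and innate immune signalling. Both groups carry the inducible Cre recombinase at Cx3cr1, a locus that is active in microglia and also in other myeloid cells such as monocytes. Tamoxifen was given to the knockout group alone, so the drug and the deletion cannot be told apart. The labels do not say that the libraries came from separate animals, and p-values then measure only a spread between libraries, which may be technical. That spread, and each limma standard error (SE), leans more on all tested genes of like level than on the gene's own replicates. They name no sequencing batch and no disease genotype.

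Rods carry a G protein, transducin, whose alpha subunit is freed when light activates the receptor pigment. The alpha subunit then removes the inhibitory subunit from the cyclic GMP phosphodiesterase, cyclic GMP falls, and the cyclic nucleotide-gated channel of the outer segment closes. Arrestin, recoverin and phosducin adjust or end this response. Microglia, the resident macrophages of the retina, are not known for using this cascade.

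All 4 libraries contained transcripts of microglia. All 19 microglia markers listed passed the filter, and they summed to 17531 (control 1), 18206 (control 2), 43426 (knockout 1) and 28277 (knockout 2) FPKM. The targeted gene, Map3k7, was at 0.08 FPKM or less in each library (0.03 and 0 in controls, 0.02 and 0.08 in knockouts), so it could not check the labels. Values often rested on a single library: of the 7823 tested genes, 2514 (32.1%) had over 90% of their total from 1 library, as had 0 of the 9 rod genes. Replicates lay within 3-fold of each other in both groups for 7 of the 9 rod genes, the exceptions being Pde6a and Pde6b. That held for 18.4% of all tested genes and for 64.2% of the 1177 genes averaging 100 FPKM or more, a level that 7 of the 9 also reached, 4 of them through the knockouts.

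The genes lie on 6 chromosomes, and no exon of another gene in GENCODE M21 overlaps theirs. Sequence before a listed start was on hand in the RefSeq promoter table (GRCm38.p6) for 5 of the 9: Sag, Pdc, Cnga1, Pde6b and Gngt1. Rod genes are known targets of the transcription factors CRX and NRL, so the 250 bases before each listed start were searched on both strands for TAATCC, the core of the CRX site, and TGCTGA, a core of the NRL site. TAATCC occurred in 3 of the 5 windows, those of Sag, Cnga1 and Gngt1, and in 6.25% of all 32851 promoters in the table. TGCTGA occurred in 2 of the 5, Sag and Pde6b, and in 16.1% of all promoters. Sag alone held both, as did 0.962% of all promoters. Exons of the gene itself in GENCODE M21 cover all 250 bases of the Cnga1 window and 216 of the Gngt1 window, so these are not purely upstream sequence, and none overlap the windows of Sag, Pde6b and Pdc. The windows of Sag, Pde6b and Pdc are shown because these genes span the range from both matches through 1 to none while all 3 read higher in both knockouts. Capitals mark the matches, and each window is written 5′ to 3′ on the + strand of GRCm38.p6, on which all 3 genes lie.
Sag, chr1:87803430-87803679: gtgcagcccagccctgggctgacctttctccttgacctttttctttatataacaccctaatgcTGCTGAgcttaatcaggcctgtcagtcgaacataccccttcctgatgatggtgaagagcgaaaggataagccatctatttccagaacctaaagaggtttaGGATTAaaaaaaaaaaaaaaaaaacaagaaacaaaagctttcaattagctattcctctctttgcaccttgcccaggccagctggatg
Pde6b, chr5:108388123-108388372: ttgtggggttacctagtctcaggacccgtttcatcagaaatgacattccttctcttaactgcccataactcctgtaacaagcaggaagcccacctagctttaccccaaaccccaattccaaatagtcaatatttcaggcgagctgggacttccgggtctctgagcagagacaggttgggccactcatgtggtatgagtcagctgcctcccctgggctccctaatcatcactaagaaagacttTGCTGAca
Pdc, chr1:150319167-150319416: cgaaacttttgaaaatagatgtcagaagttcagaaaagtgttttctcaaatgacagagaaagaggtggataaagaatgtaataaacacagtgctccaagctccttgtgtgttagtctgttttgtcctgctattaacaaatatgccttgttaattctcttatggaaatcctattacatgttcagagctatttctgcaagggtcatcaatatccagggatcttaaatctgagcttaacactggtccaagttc
In Sag the TAATCC match begins 87 bases before the listed start, on the reverse strand, where it reads GGATTA, and the TGCTGA match begins 187 bases before it. The TGCTGA match of Pde6b begins 8 bases before the start. The listed start of Sag lies inside the gene (chromosome 1, 87798143 to 87845158), which has another start further upstream. A match describes the letters of the window and not binding, and no match says only that these letters are not in it.

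Rod phototransduction transcripts were present in every library and read higher in the knockouts than in the controls. Control 1 held 2178 FPKM of the 9 genes together and control 2 held 3138, while knockout 1 held 5911 and knockout 2 held 8805. As shares of all FPKM these sums were 0.225% and 0.363% for controls and 0.718% and 1.08% for knockouts. In pooled cells, a change in the number of cells of a type and a change in RNA per cell cannot be told apart. How rod transcripts came to be in these libraries was not tested. The ratio of the group means was 2.77. For 8 of the 9 genes both knockouts lay above both controls, where 27.8% of all tested genes did so. Among genes averaging 100 FPKM or more it held for 6 of 7 members and for 19.0% of all genes at that level. Of these 7, 4 reached the level with a control mean under it, against 150 of all 1177 genes at that level. None of the 9 had both knockouts below both controls, where 11.4% of all tested genes did (26.5% at 100 FPKM or more). After Benjamini-Hochberg adjustment over all tested genes, limma called 0% of genes higher and 0% lower. Before adjustment 4 of the 9, all higher in knockouts, had limma p under 0.05, against 6.07% of all tested genes higher and 1.62% lower. This count depended on the processing. It was 5 without the filter and with the replicate block, 3 with an untrended prior (Pde6a, Pde6b and Pde6g) and 1 after median ratio scaling (Pde6g). The shares of all genes were not computed for these settings. The smallest p that an exact permutation test, two-sided, can give for 2 libraries against 2 is 0.333.

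**Figure D1:**
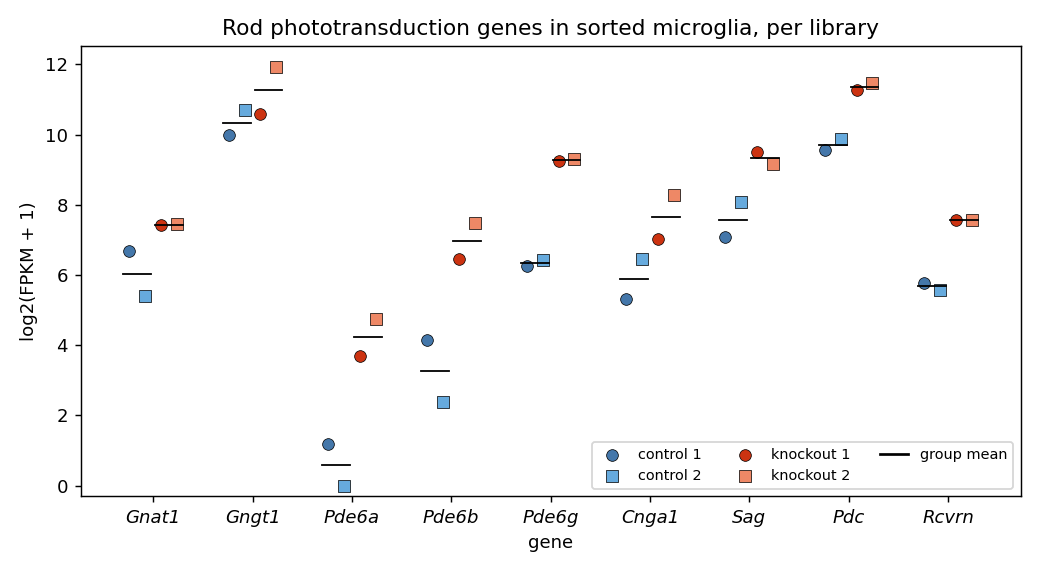
Level of each rod phototransduction gene as log2(FPKM + 1) on the vertical axis, 1 point per library, with a bar at the mean of each group of 2. Both knockout points lie above both control points for every gene except Gngt1, where control 2 lies above knockout 1.

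Transducin was represented by Gnat1, its rod alpha subunit, and Gngt1, its rod gamma subunit. Gnat1 (chromosome 9, 107674437 to 107679634) read 102 and 41.0 FPKM in controls, and knockouts were at 169.6 and 175 FPKM. The knockouts were close together and above both controls, which differed 2.48-fold from each other. The difference on the log2(FPKM + 1) scale was 1.40 ± 0.94 (SE; limma adjusted p = 0.698). It was 0.76 without control 2 and 0.53 after median ratio scaling. Gngt1 (chromosome 6, 3989082 to 3997436), the most abundant of the 9 in FPKM, read 1005 and 1670.5 FPKM in controls, and knockouts were at 1542 and 3889.6 FPKM. Its groups overlapped, because knockout 1 lay below control 2. The difference was 0.92 ± 0.52 log2 units (SE; limma adjusted p = 0.698), and 0.25 without knockout 2.

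The phosphodiesterase genes showed the largest differences of the 9 on the log2 scale. Pde6g, the inhibitory gamma subunit (chromosome 11, 120447607 to 120453500), read 76.1 and 84.4 FPKM in controls, and knockouts were at 603 and 629.7 FPKM. Replicates were within 1.11-fold of each other, and the lower knockout stood 7.15-fold above the higher control. The group means were 80.2 ± 5.82 and 616 ± 18.8 FPKM (SD, n = 2 each), a difference of 2.93 ± 0.67 log2 units (SE). For Pde6g limma gave an unadjusted p of 0.0047 and an adjusted p of 0.559. Pde6b, the catalytic beta subunit (chromosome 5, 108388373 to 108431743), read 16.6 and 4.24 FPKM in controls, and knockouts were at 86.5 and 179 FPKM. It was low in both controls, which differed 3.92-fold, and its lower knockout stood 5.21-fold above the higher control. The log2 difference was 3.71 ± 1.32 (SE; limma unadjusted p = 0.0312, adjusted p = 0.582). Pde6a, the catalytic alpha subunit, was the least abundant member at 1.28 and 0 FPKM in controls, and knockouts were at 12 and 26.1 FPKM. Its log2 difference was 3.64 ± 1.65 (SE; limma adjusted p = 0.692). It depended on the value added before the logarithm, at 5.58 with 0.1 FPKM and 2.04 with 5 FPKM.

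Cnga1, the alpha subunit of the rod cyclic nucleotide-gated channel (chromosome 5, 72603696 to 72642752), read 38.8 and 86.5 FPKM in controls, and knockouts were at 128 and 312 FPKM. The groups were separated by less than the replicates: the lower knockout was 1.48-fold above the higher control, while replicates differed 2.23-fold and 2.43-fold. The log2 difference was 1.77 ± 0.99 (SE; limma adjusted p = 0.698), and 1.13 without knockout 2.

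The regulators of the cascade were each separated between the groups, with smaller gaps than Pde6g. Sag, rod arrestin, which binds the light-activated receptor, read 134 and 268 FPKM in controls, and knockouts were at 722 and 572 FPKM. The lower knockout lay 2.13-fold above the higher control, and the log2 difference was 1.75 ± 0.64 (SE; limma unadjusted p = 0.0335, adjusted p = 0.595). Pdc, phosducin, which binds the beta and gamma subunits of transducin (chromosome 1, 150319417 to 150333906), read 750.3 and 937 FPKM in controls, and knockouts were at 2458 and 2834 FPKM. Among the 7823 tested genes its ranks were 229 and 161 in controls against 33 and 28 in knockouts, counted from the highest FPKM. The group means of Pdc were 844 ± 132 and 2646 ± 266 FPKM (SD, n = 2 each). Its log2 difference of 1.65 ± 0.32 (SE) had the smallest limma standard error of the 9, which leans on all genes of like level. For Pdc limma gave an unadjusted p of 0.00213 and an adjusted p of 0.559. Rcvrn, recoverin, a calcium sensor that restrains the receptor kinase (chromosome 11, 67695326 to 67703355), read 53.5 and 47.0 FPKM in controls, and knockouts were at 188.7 and 188.9 FPKM. Both groups were tight, and the lower knockout stood 3.52-fold above the higher control. The log2 difference was 1.89 ± 0.89 (SE; limma adjusted p = 0.698), an SE that reflects all genes of like level more than these replicates.

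**Figure D2:**
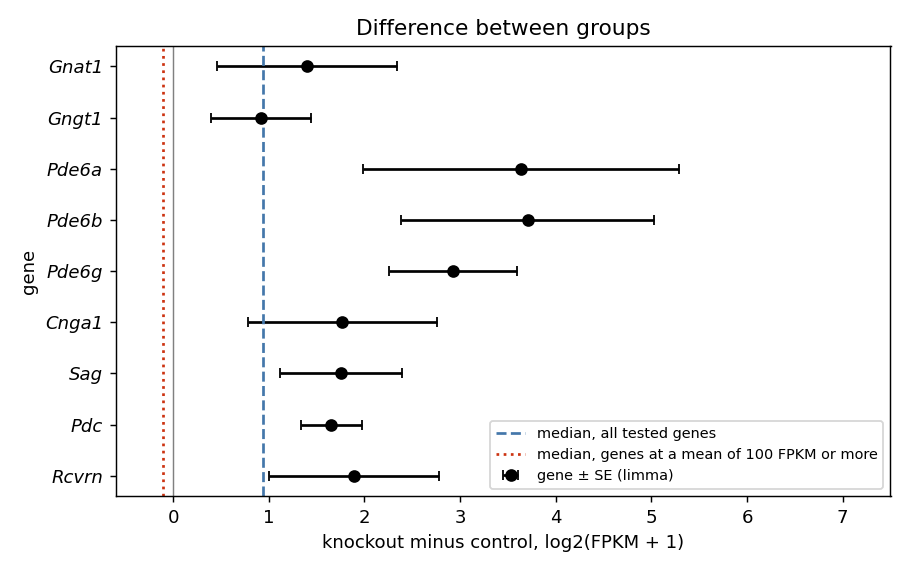
Difference between knockout and control on the log2(FPKM + 1) scale for each gene, with the standard error from limma as a horizontal bar. Vertical lines mark the median difference of all 7823 tested genes (0.94, dashed) and of the 1177 genes averaging 100 FPKM or more (-0.11, dotted). Gngt1 sits at 0.92, and the other 8 genes lie at 1.40 or above. Pde6a and Pde6b average under 100 FPKM and are not among the 1177 genes. Of the 7 members that are, 4 had control means under 100 FPKM, against 150 of the 1177, so the dotted line is a description only.

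Over the 9 genes the median difference was 1.77 log2 units, against 0.94 for all tested genes. Among genes averaging 100 FPKM or more over the 4 libraries it was 1.75 over 7 members and -0.11 for all 1177. Of these 7, Gnat1, Pde6g, Rcvrn and Cnga1 had control means under 100 FPKM and so reached the level through the knockouts, and the 2 medians are given as a description only. Median ratio scaling lowered the ratio of the summed FPKM from 2.77 to 1.45 and the members' median to 0.89, with all genes at 0.17, and left 7 of 9 above both controls (20.2% of all tested genes) and 0 below (20.7%). The single differences then ran from 0.03 for Gngt1 to 3.15 for Pde6a. Its factors came from 6484 genes above 0 in every library, of which 4421 were under 1 FPKM in at least 1. When they came instead from the 2063 genes at 1 FPKM or more in every library, a choice made after seeing the data, the ratio was 2.90 and the median 1.84 (all genes 0.99).

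Levels in FPKM, which is per transcript length, ran from Gngt1 and Pdc down to Pde6b and Pde6a in both groups. Controls ran from Gngt1 at 1338 ± 470.2 FPKM and Pdc through Sag at 201 ± 94.5 FPKM to Pde6g, Gnat1, Cnga1 and Rcvrn between 50.3 and 80.2 FPKM, with Pde6b at 10.4 ± 8.74 and Pde6a last (means ± SD, n = 2). Gnat1 and Cnga1 overlapped with each other and with their neighbours in the controls, whereas Gngt1 lay above Pdc in both. In the knockouts Gngt1 at 2716 ± 1660 FPKM and Pdc at 2646 ± 266 FPKM overlapped, as did Sag at 647 ± 106 and Pde6g at 616 ± 18.8 FPKM (SD, n = 2 each). Pde6g thus stood below Sag in both controls and reached its level in the knockouts. Gngt1 and Pdc together dominated the summed signal, with Gngt1 at 46.2%, 53.2%, 26.1% and 44.2% of it in control 1, control 2, knockout 1 and knockout 2. Without this pair the other 7 genes summed to 422 and 531 FPKM in controls, and knockouts were at 1910.5 and 2082 FPKM, a ratio of 4.19. The pair was picked after its values were seen, and it holds Gngt1, the member with the smallest log2 difference, so this ratio is a description only.

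**Figure D3:**
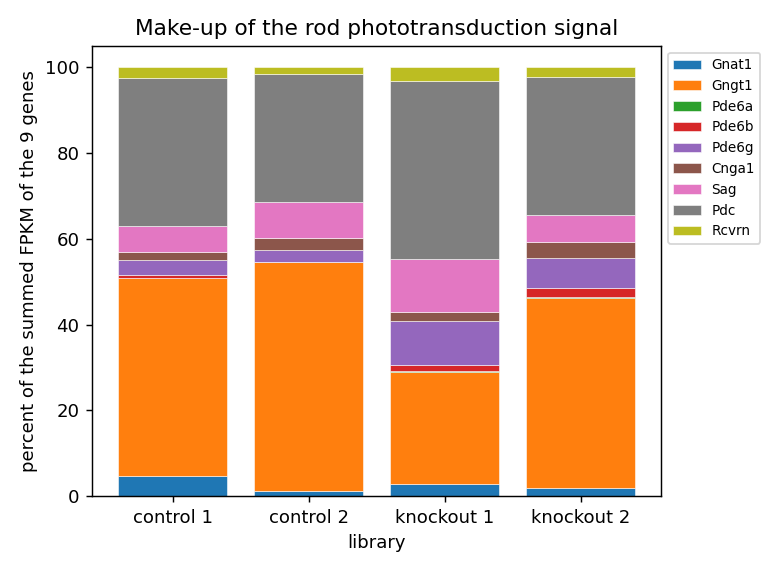
Each bar splits the summed FPKM of the 9 genes in 1 library into the percentage held by each gene. Gngt1 and Pdc fill most of every bar, and the Pde6g part is 3.50% and 2.69% for controls and 10.2% and 7.15% for knockouts.

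Other genes of the rod cascade were followed in a list of 13, all in the table. Of the 11 tested, 9 had both knockouts above both controls and 0 had them below (27.8% and 11.4% of all tested genes), but 5 of the 11 had a control mean under 1 FPKM and so passed the filter through the knockouts. None passed the adjusted test (smallest limma adjusted p = 0.562). Guca1a, a calcium-dependent activator of guanylate cyclase, read 170.1 and 85.5 FPKM in controls, and knockouts were at 519.6 and 470.3 FPKM. Unc119, which carries lipid-modified transducin, read 28.9 and 22.1 against 137 and 124 FPKM. The phosphodiesterase chaperone Pde6d read 7.96 and 0.38 against 129 and 79.9 FPKM. All 3 were separated between the groups, as were Slc24a1, the rod sodium, calcium and potassium exchanger, at 0.56 and 1.12 against 7.25 and 46.8 FPKM, and Rgs9bp, the anchor of the transducin-inactivating complex, at 0 and 2.62 against 28.5 and 18.7 FPKM. Gnb1, the beta subunit of transducin, which other cells also express, read 727 and 757 against 866 and 2522 FPKM, with knockout 1 near the controls. Cngb1, the channel partner of Cnga1, overlapped between groups at 11.4 and 0.09 against 10.6 and 7.64 FPKM; it lies outside the rule for named genes and was picked after its values were seen.

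Genes of outer segment structure, the visual cycle and rod transcription did not all go one way. Of 18 in the table and 17 tested, 8 had both knockouts above both controls, 1 had them below and 8 overlapped, against 27.8% above and 11.4% below among all tested genes, and 3 of the 17 had a control mean under 1 FPKM. Rom1, a disc rim protein, read 17.5 and 17.5 FPKM in controls, and knockouts were at 127 and 88.4 FPKM. Rdh12, a retinol dehydrogenase of photoreceptors, read 0.17 and 0.38 against 41.3 and 143 FPKM. Rp1, a microtubule protein of the outer segment, overlapped at 30.9 and 90.8 against 48.2 and 38.6 FPKM. Rpgrip1, a protein of the connecting cilium, went the other way at 86.2 and 174.5 FPKM in the controls against 5.05 and 16.9 FPKM in the knockouts (log2 difference -3.57 ± 1.29 SE, limma adjusted p = 0.595). Of 3 rod transcription factors in the list, picked after their values were seen, Nr2e3 had both knockouts above both controls, at 1 and 0.17 against 12.2 and 85.1 FPKM. Nrl and Crx overlapped between groups: Nrl read 14.4 and 32.0 against 27.5 and 33.9 FPKM, and Crx 18.7 and 12.1 against 33.8 and 0.41 FPKM.

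**Figure D4:**
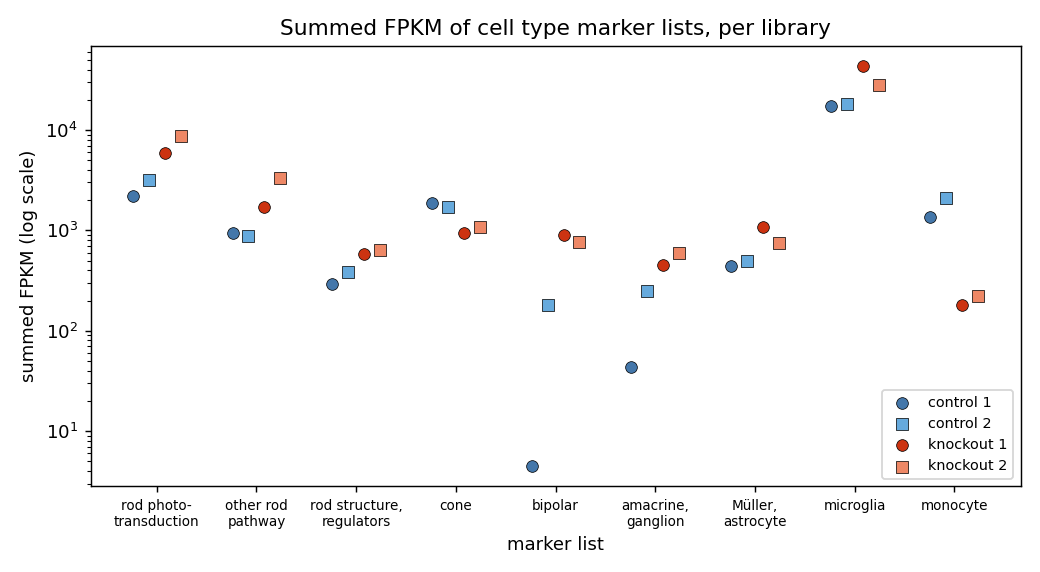
Summed FPKM of each marker list on a log axis, 1 point per library. The rod phototransduction, other rod pathway, rod structure, bipolar, amacrine and ganglion, Müller and astrocyte, and microglia sums are higher in both knockouts than in both controls, while the cone and monocyte sums are lower. Most of the cone sum is Gngt2, which myeloid cells also express.

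Markers of other cell types also stood at different levels in the 2 groups. For these counts too, 27.8% of all tested genes lay above both controls and 11.4% below. Bipolar cell markers (5 of 6 tested above, 3 of the 6 with a control mean under 1 FPKM) summed to 4.46 and 181 FPKM in controls, and knockouts were at 907 and 771 FPKM. Nearly all of this sum was Pcp2, at 3.28 and 95.7 against 647 and 572 FPKM, and Gng13, at 1.02 and 67.2 against 221 and 178 FPKM. Of the 14 bipolar markers listed, 7 were under 1 FPKM in every library, among them Cabp5 and Vsx1. Amacrine and ganglion cell markers (4 of 7 above, 3 of these 4 with a control mean under 1 FPKM) summed to 43.7 and 249.6 against 449 and 588 FPKM, with Calb2 and Pou4f1 at 0 throughout. Of this sum Snap25 gave 15.1 and 222 against 317 and 498 FPKM. Of the 14 such markers in the table, 6 were under 1 FPKM in every library. Müller glia and astrocyte markers (1 of 9 above, 2 below) summed to 447 and 491 against 1084 and 742 FPKM, of which Glul gave 84.6 and 318 against 774 and 599 FPKM. Cone markers (3 of 8 above, 1 below, with 3 of the 8 under 1 FPKM in the control mean) summed to 1865 and 1727 against 932.5 and 1083 FPKM, most of it Gngt2, which myeloid cells also express, at 1787 and 1552 against 809 and 669 FPKM. The lower cone sum thus reflects Gngt2. Opn1mw went the other way at 0.66 and 0.81 against 36.7 and 272 FPKM. So did Gnat2, at 0.04 and 0.32 against 28.4 and 115 FPKM, while 4 of the 8 overlapped between groups. Monocyte markers (0 of 8 above, 3 below) summed to 1358 and 2099 against 179 and 222 FPKM. Pigment epithelium markers summed to under 10 FPKM in every library, and endothelial markers (1 of 2 tested above, 0 below) to 0.19 and 0.6 against 15.9 and 100.1 FPKM. The endothelial sum in the knockouts was nearly all Flt1, at 15.9 and 8.05 FPKM, and Ly6c1, at 0 and 91.7 FPKM. Breadth also differed: the count of genes reaching 1 FPKM was 4481 and 3777 in controls against 6055 and 5628 in knockouts. The part of these cell types, and of this breadth, in the rod difference was not tested.

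Set against the microglia markers, the groups of the rod sum were not separated. The 19 microglia markers also read higher in the knockouts as a sum (10 of 19 above both controls and 2 below, beside 27.8% and 11.4% of all tested genes). The 9 rod genes came to 12.4 and 17.2 FPKM per 100 FPKM of the microglia markers in controls, with 13.6 for knockout 1 and 31.1 for knockout 2. Knockout 1 therefore lay between the controls on this measure. The share of all FPKM held by the microglia markers was 1.81% and 2.11% for controls and 5.28% and 3.48% for knockouts.

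**Figure D5:**
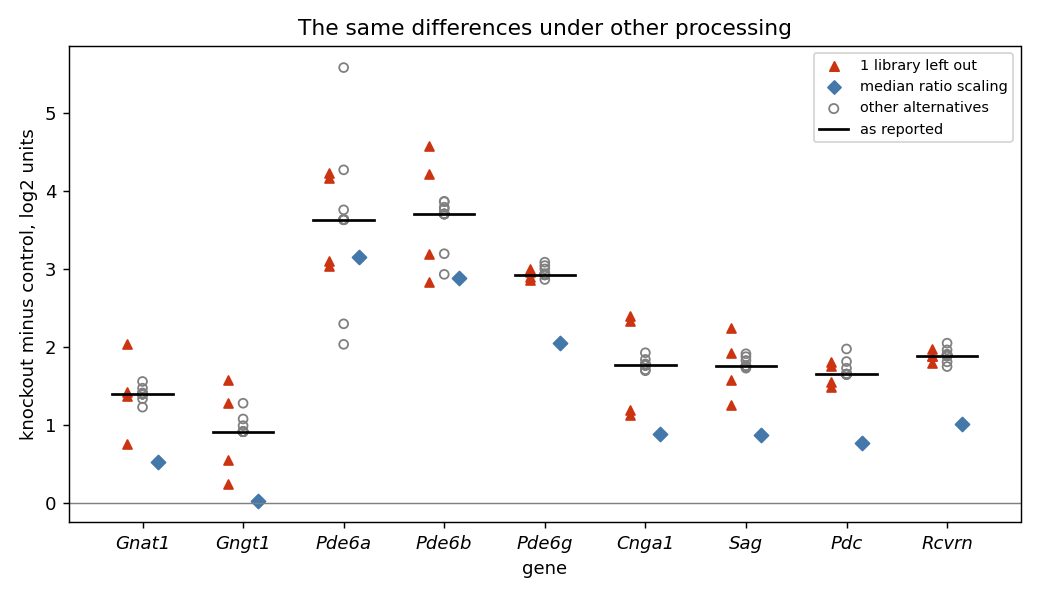
Differences between knockout and control in log2 units for each gene, as reported (black bars), with 1 library left out (triangles), after median ratio scaling (diamonds) and under the other alternatives (circles). Every point lies above 0, Pde6g stays between 2.05 and 3.09, and Gngt1 comes down to 0.03 after median ratio scaling. The median of all tested genes, 0.94 as reported, is not drawn.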

How the data were processed

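Microglia were sorted on EYFP, 200 cells per library, and amplified as SMART-seq type cDNA before transposon-based library construction, per the labels' protocols. The authors deposited 1 FPKM value per gene and library; mm10 is the build in the submitters' processing notes. Which aligner, quantifier and annotation were used is not given in the sources used here. Because FPKM keep no read counts, depth is unknown and no counting interval is given.

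Columns were matched to samples by title. Genes averaging 1 FPKM or more over the libraries were put on the log2(FPKM + 1) scale, which understates changes of low genes. The groups were compared by limma 3.58.1 in R 4.3.3 with a trended prior (2 residual degrees of freedom and 3.99 prior ones) and Benjamini-Hochberg adjustment over all 7823 genes and a threshold of 0.05. The code was tested on simulated data. Figures were drawn with matplotlib 3.10.9.

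Members, lists and alternatives were chosen with earlier results of these data known. Named were all 9 members, the 6 most abundant other pathway genes, the 4 most abundant structure genes, up to 3 most abundant genes of each other list, and the 5 genes nearest in pattern; those that bear on the rod genes are printed. Nrl, Crx, Nr2e3, Cngb1 and the markers at or near 0 were picked after their values were seen. Alternatives were other pseudocounts, filters, scalings and variance models, the replicate number as a block, and each library left out.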

Additional observations from a re-analysis of the deposited data

How the results depend on the processing

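All 9 genes kept a positive difference under every alternative that could test them (16 or 17 per gene, 7 genes at a mean of at least 100 FPKM), and none passed the adjusted test in any of them except Pdc with the replicate number as a block. A positive sign alone says little, since the median of all tested genes was itself 0.94 as reported. The members' median was 1.77 log2 units as reported and 0.89 after median ratio scaling (all genes 0.17). Leaving out 1 library in turn gave 1.89 to 2.25, with all genes at 0.64 to 1.38. Without control 1, Gngt1 (0.55), Cnga1 (1.20) and Sag (1.26) lay below the 1.38 of all genes, and the other members above it. Without control 2, Gnat1 (0.76) lay below the 1.04 of all genes. Gngt1 lay below all genes in several settings. Among them were the fit as reported (0.92 against 0.94), 0.1 FPKM added (0.92 against 1.26) and knockout 2 left out (0.25 against 0.96). After median ratio scaling Gngt1, at 0.03, lay below the 0.17. The ratio of summed FPKM, 2.77, was 1.45 after median ratio scaling. With 1 library left out, Gngt1 ranged from 0.25 to 1.58, Cnga1 from 1.13 to 2.41 and Gnat1 from 0.76 to 2.04 log2 units. Over all genes, 0 were called in either direction as reported (before adjustment, p was under 0.05 for 475 higher and 127 lower genes). Quantile normalization called 2 higher and 3 lower, none of them among the 9. Leaving out 1 library called 0 to 1306 higher and 0 to 5 lower: 697 and 4 without knockout 1, 1306 and 5 without knockout 2, and 0 without either control; the lone library is there assumed to vary like the other group, and none of the 9 was called. The labels share replicate numbers but do not say that these pair the samples, and the deviations of control 1 and knockout 1 had r = 0.02 across genes. With the replicate block, on 1 residual degree of freedom and with zero variances in some genes, 15 genes were called higher and 20 lower, Pdc among the former (limma adjusted p = 0.0358).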

Other observations

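Among the tested genes outside the cell type lists, the 5 whose pattern over the 4 libraries was nearest to that of the summed rod genes were Sf3b1, Ufc1, Hmgb2, Tcof1 and Sirpa. Nearness was the root mean square difference between centred log2(FPKM + 1) profiles, 0.15 to 0.18 log2 units over 4 libraries, where Pdc itself stood at 0.18. Sf3b1, a splicing factor, read 23.9 and 33.9 FPKM in controls, and knockouts were at 79.7 and 122.9 FPKM. Sirpa, an inhibitory receptor of macrophages, read 11.1 and 14.3 against 22.7 and 44.5 FPKM. Pdc is itself part of the summed signal, and Tcof1 was low at 0.01 and 0.96 against 2.55 and 3.86 FPKM. Over all tested genes, the members among them, 96 lay nearer than the members' median distance of 0.39. With 4 libraries such likeness is a description only.

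The 3 ratios between rod genes that were computed as FPKM ratios had no order by group. The ratio of Pdc to Sag in FPKM was 5.58 and 3.50 for controls and 3.40 and 4.96 for knockouts. Pde6g to Pde6b ran from 3.53 in knockout 2 to 19.9 in control 2, and Gngt1 to Gnat1 from 9.10 in knockout 1 to 40.7 in control 2.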
